A study of Mus musculus with 8 samples.

Results

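The 4 myosin heavy chain genes that adult limb muscle fibres use, *Myh4*, *Myh1*, *Myh2* and *Myh7*, were examined in RNA sequencing of tibialis anterior (TA) muscle, a fast-twitch muscle of the shin. They were taken by gene symbol, with earlier results of these data known, and all 4 were found among the 12551 genes counted. The mice were 4 wild-type (WT) males, labelled Klotho wt/wt, and 4 males homozygous for a Klotho null allele (KL-/-, labelled Klotho null/null). All were 7 weeks of age and bred from heterozygotes on a mixed background, and the null allele is present in every cell of the animal. Each library holds RNA of muscle tissue and not of separated fibres, so fibres are measured together with vessels, nerve and connective tissue. Counts on genes summed to between 20860262 and 29273758 per library. *Kl* itself is not among the genes analysed here, so the genotypes could not be checked in these counts. They rest on the labels and on the PCR genotyping that the authors describe. Of all genes, 1759 differed between genotypes at an FDR under 0.05 in edgeR's quasi-likelihood test, which is 14.0% of those tested. The batch date of KL-/- 3 differs from that of the other 7, and with no second library of that date, batch and mouse cannot be told apart.

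Myosin heavy chains are the motor proteins of the thick filament, and the isoform that a fibre makes largely sets how fast it contracts. *Myh4* encodes the type IIb isoform of the fastest, glycolytic fibres, *Myh1* the type IIx isoform, *Myh2* the type IIa isoform of fast oxidative fibres and *Myh7* the type I isoform of slow fibres, which the heart also uses. A rodent TA muscle is built mainly of type IIb and IIx fibres, with few type I fibres. The comparison asks how these transcripts divide between the isoforms in muscle with and without Klotho, a protein of kidney and other tissues that takes part in phosphate handling and whose loss leads to early ageing-like decline in mice.

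The 3 type II genes stand in a row on the forward strand of chromosome 11 of mm10. *Myh2* (67171027 to 67197517) is followed after 2596 bases by *Myh1* (67200114 to 67224575), and *Myh1* after 13236 bases by *Myh4* (67237812 to 67260447). *Myh7* lies apart, on the reverse strand of chromosome 14 (54970688 to 54994549). The 250 bases before the start of each gene are shown because they hold the sequence that the 3 neighbours share and *Myh7* does not. They were read from RefSeq on GRCm38.p6, and distances are counted from its starts. For *Myh1* and *Myh7* these starts lie upstream of the positions given above, which span the counted exons. Capitals mark a run of 20 bases common to the neighbours, the letters TATAAA and the E-box letters CANNTG on the strand of the gene.
Myh4, chr11:67237562-67237811, forward strand: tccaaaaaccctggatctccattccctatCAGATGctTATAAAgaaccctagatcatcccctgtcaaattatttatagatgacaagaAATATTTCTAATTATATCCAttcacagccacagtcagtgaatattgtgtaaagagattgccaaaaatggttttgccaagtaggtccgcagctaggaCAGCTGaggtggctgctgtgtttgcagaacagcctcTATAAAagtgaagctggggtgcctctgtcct
Myh1, chr11:67199852-67200101, forward strand: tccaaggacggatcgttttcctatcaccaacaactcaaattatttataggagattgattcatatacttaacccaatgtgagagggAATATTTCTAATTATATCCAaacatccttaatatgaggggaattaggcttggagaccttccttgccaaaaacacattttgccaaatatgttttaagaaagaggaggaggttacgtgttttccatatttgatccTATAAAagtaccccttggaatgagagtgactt
Myh2, chr11:67170777-67171026, forward strand: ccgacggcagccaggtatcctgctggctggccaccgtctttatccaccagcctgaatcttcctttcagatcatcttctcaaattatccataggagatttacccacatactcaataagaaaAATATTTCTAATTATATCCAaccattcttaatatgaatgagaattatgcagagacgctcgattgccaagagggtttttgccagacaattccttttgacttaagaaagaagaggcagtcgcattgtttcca
Myh7, chr14:54994627-54994876, reverse strand: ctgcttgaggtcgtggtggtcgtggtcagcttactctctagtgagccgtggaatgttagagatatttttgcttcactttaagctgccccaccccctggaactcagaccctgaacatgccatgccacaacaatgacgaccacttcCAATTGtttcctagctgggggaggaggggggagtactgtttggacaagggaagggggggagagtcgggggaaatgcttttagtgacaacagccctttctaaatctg

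The shared run, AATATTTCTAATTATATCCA, begins 163 bases before the start of *Myh4*, 165 before *Myh1* and 130 before *Myh2*. Of 32851 mouse promoters searched on both strands over the same length, 3 held it, or 0.00913%, and they were those of these 3 genes. A TATAAA begins 31 bases before the start of *Myh4* and 32 bases before that of *Myh1*, whereas the windows of *Myh2* and *Myh7* hold none on either strand. For *Myh2* the window ends closer to the shared run, 130 bases from it against 165 in *Myh1*. The stretch of *Myh2* that corresponds to the TATAAA of *Myh1* thus lies past its window and was not searched. TATAAA was in 12.4% of all promoters. An E-box, present in 66.2% of promoters, begins 221 and 67 bases before *Myh4* and 106 bases before *Myh7*. The MEF2 motif, searched by name and found in 2.92% of promoters, begins 182 bases before *Myh4* and 211 before *Myh1*, where it overlaps a TATAAA of the reverse strand. The CArG motif, searched by name and in 1.47% of promoters, begins 104 bases before *Myh4*. GGAAA, the core of NFAT sites, was in 55.6% of promoters and in the windows of *Myh1*, *Myh2* and *Myh7*, and TGCTGA, a part of the MAF recognition element, was in 16.1% and in none of the 4. *Myh7* has 2 starts in RefSeq, of which the one farther upstream was used.

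The coding sequences are alike, which matters for how reads are assigned. Over the aligned coding bases, *Myh4* and *Myh1* were 90.09% identical, *Myh1* and *Myh2* 90.94%, *Myh4* and *Myh2* 88.2%, and *Myh7* was 77.15% to 77.6% identical to these. Even so, stretches exist that tell the type II genes apart. The 60 coding bases that differ most among them are shown for that reason, counted from the first base of each coding sequence, with capitals at the positions where the type II genes differ and, in the line of *Myh7* only, also where *Myh7* differs from *Myh4*.
Myh4, coding sequence, 60 bases from 3842: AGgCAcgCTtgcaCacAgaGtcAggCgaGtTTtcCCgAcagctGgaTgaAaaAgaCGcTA
Myh1, coding sequence, 60 bases from 3851: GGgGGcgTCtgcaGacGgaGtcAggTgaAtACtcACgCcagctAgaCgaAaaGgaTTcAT
Myh2, coding sequence, 60 bases from 3851: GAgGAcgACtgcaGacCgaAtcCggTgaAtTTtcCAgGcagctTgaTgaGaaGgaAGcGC
Myh7, coding sequence, 60 bases from 3830: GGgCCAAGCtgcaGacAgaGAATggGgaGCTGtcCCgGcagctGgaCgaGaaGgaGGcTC

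Among the type II genes, 25 of these 60 positions differ. At the other extreme, coding bases 1321 to 1380 are the same in all 3 of them, and *Myh7* differs there at 13 positions, shown in capitals.
Myh4, Myh1 and Myh2, coding bases 1321 to 1380: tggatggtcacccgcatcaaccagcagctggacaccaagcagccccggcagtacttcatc
Myh7, coding bases 1312 to 1371: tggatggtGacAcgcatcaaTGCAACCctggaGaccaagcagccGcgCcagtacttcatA

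Of the stretches of 100 bases in each transcript, 3.85% in *Myh4*, 13.7% in *Myh1*, 11.3% in *Myh2* and 14.1% in *Myh7* also occur in another gene. For stretches of 50 bases these shares were 18.9%, 31.5%, 29.2% and 28.7%. Reads of low mapping quality were removed before counting, but how reads that match several genes were treated is not stated. Neither is the read length, so some counts may have been lost or moved between these genes. Antisense genes overlap *Myh1* (Myhas), *Myh2* (9430073C21Rik) and *Myh7* (Mhrt among them), and since the use of strand in the counting is not stated, their reads cannot be told apart from those of the myosins.

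*Myh4* was higher in each KL-/- library than in any WT library. Levels are given as CPM, the counts relative to a library size scaled with edgeR's TMM factors. *Myh4* was at 35450, 35685, 37575 and 32439 CPM in WT 1 to 4, and at 42976, 62798, 45341 and 43066 CPM in KL-/- 1 to 4. The genotypes did not overlap, which holds for 19.7% of all genes, 10.2% with higher and 9.47% with lower values in KL-/- muscle, and KL-/- 2 lay far above the other KL-/- libraries. The means were 35287 ± 2124 and 48545 ± 9565 CPM (SD, n = 4). The log2 fold change of KL-/- over WT was 0.46 (standard error, SE, 0.21) with a 95% interval of 0.00036 to 0.92, and at an FDR of 0.155 in the quasi-likelihood test it did not pass. The unadjusted p was 0.0499, and *Myh4* was the only one of the 4 genes with an unadjusted p under 0.05. It was past the FDR threshold in 3 other tests, at 0.0169 in edgeR's likelihood ratio test, 0.00317 in DESeq2 and 0.0442 in limma-voom. Of all genes these tests called 16.9%, 19.6% and 14.1%, against 14.0% in the quasi-likelihood test. The quasi-likelihood test of edgeR 3 gave an FDR of 0.052, which did not pass. In bulk RNA, more fibres of a type and more transcript per fibre cannot be told apart.

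*Myh1*, the neighbour whose product fills the type IIx fibre, did not pass the test, and its genotypes overlapped. Its level was 20009, 16890, 19676 and 17577 CPM in WT 1 to 4, and 15544, 11209, 17782 and 15369 CPM in KL-/- 1 to 4. KL-/- 3 lay above WT 2 and WT 4, and KL-/- 2 was the lowest of the 8. The log2 fold change was −0.31 (SE 0.17), at an FDR of 0.246 in the quasi-likelihood test. Its 95% interval, −0.69 to 0.079, includes no difference, and without KL-/- 2 the value was −0.18.

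*Myh2*, the type IIa gene, varied widely between mice of the same genotype. It was at 1169, 1662, 2486 and 4436 CPM in WT 1 to 4, and at 5252, 292, 5441 and 3445 CPM in KL-/- 1 to 4. KL-/- 1 and 3 lay above all WT libraries and KL-/- 2 below all of them, so the genotypes overlapped across their whole range. The highest library of a genotype exceeded the lowest by 3.79 times in WT and by 18.7 times in KL-/- muscle. The log2 fold change of 0.57 had an SE of 0.71, a 95% interval of −1.02 to 2.15 and an FDR of 0.613 in the quasi-likelihood test. Leaving out 1 library at a time moved it between 0.30 and 1.03, with 0.96 without KL-/- 2, and limma-voom gave 0.094.

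*Myh7*, the slow gene, was at a trace level in this muscle. Its counts were 45, 184, 263 and 68 in WT 1 to 4, or 1.84, 8.51, 10.03 and 2.44 CPM. They were 1172, 200, 91 and 73 in KL-/- 1 to 4, or 40.9, 9.54, 3.77 and 2.75 CPM. KL-/- 1 stood apart, and the other KL-/- libraries lay within the range of the WT libraries. The log2 fold change of 1.34 (SE 0.85), at an FDR of 0.301 in the quasi-likelihood test, turned to −0.099 (FDR = 0.931) when KL-/- 1 was left out. The 95% interval of −0.56 to 3.25 leaves the direction undetermined.

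**Figure D1:**
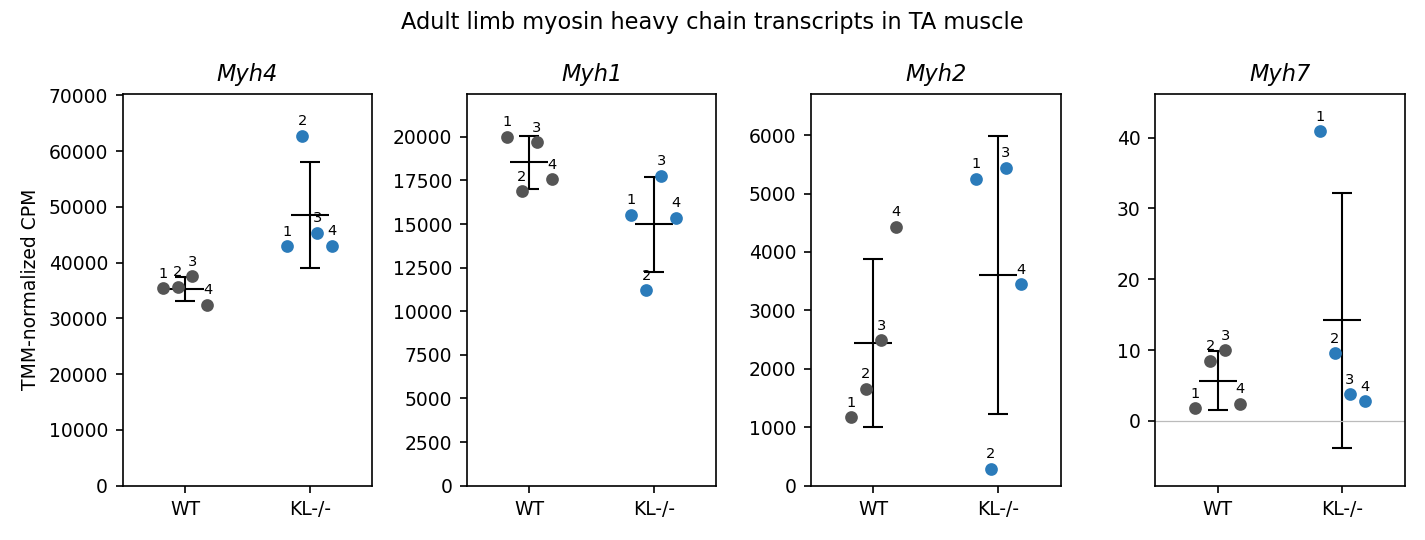
Level of each gene in TMM-normalized CPM in WT (grey) and KL-/- (blue) TA muscle. Points are libraries with their replicate numbers, lines and bars are means ± SD (n = 4), and each panel has its own axis. *Myh4* separates the genotypes, with KL-/- 2 at 62798 CPM, *Myh2* runs from 292 to 5441 CPM, and for *Myh7* only KL-/- 1, at 40.9 CPM, lies above the WT range.

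None of the 4 genes therefore passed the FDR threshold of the quasi-likelihood test, where 14.0% of all genes did. The genes differed in how much they varied among mice of the same genotype. The SD of log2 CPM within genotypes was 0.20 for *Myh4* and 0.22 for *Myh1*, against a median of 0.16 over all genes. It was 1.54 for *Myh2* and 1.496 for *Myh7*, which ranked 24 and 26 of 12551 genes from the most variable. Among the 6258 genes whose average log2 CPM reached 4, the median was 0.11, and *Myh2* ranked 6, *Myh1* 863 and *Myh4* 1067.

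**Figure D2:**
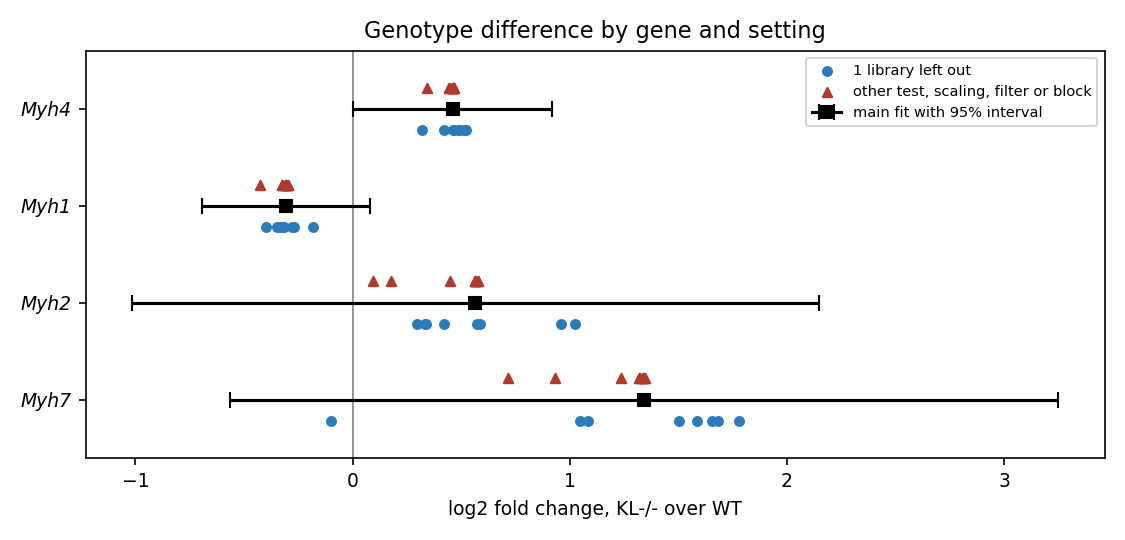
Log2 fold change of KL-/- over WT for each gene in edgeR's quasi-likelihood fit (black squares, 95% intervals), with 1 library left out (blue circles) and with other tests, scalings, filters or the replicate block (red triangles). The *Myh4* values stay between 0.32 and 0.52 and those of *Myh1* between −0.42 and −0.18, whereas *Myh7* reaches −0.099 without KL-/- 1.

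The share of each isoform within a library needs no scaling between libraries. It was taken as the counts per kilobase of a gene divided by the sum over the 4 genes. In every library the order was *Myh4*, *Myh1*, *Myh2* and *Myh7*, and counting error was small, with 95% Wilson intervals of the shares of raw counts no wider than ±0.0859 percentage points. These intervals cover counting error only.

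The *Myh4* share was larger in each KL-/- muscle than in any WT muscle. It was 62.5%, 65.7%, 62.8% and 59.6% in WT 1 to 4, and 67.3%, 84.5%, 66.1% and 69.6% in KL-/- 1 to 4. The groups came within 1 percentage point of each other, at WT 2 and KL-/- 3, and KL-/- 2 was far above the rest. The mean was 62.7% ± 2.53 (SD, n = 4) in WT and 71.9% ± 8.52 (SD, n = 4) in KL-/- muscle, a difference of 9.20 percentage points (exact permutation test, two-sided, p = 0.0286, which is the smallest that 4 against 4 allows). Without KL-/- 2 the difference was 5.005 percentage points (exact permutation test, p = 0.0571). The call was also lost without any 1 of the WT libraries, at differences of 8.16 to 10.2 percentage points (exact permutation test, p = 0.0857 to 0.114).

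The *Myh1* share moved by about as much in the other direction, and the groups were clearly apart. It was 35.4%, 31.2%, 33.0% and 32.4% in WT 1 to 4, and 24.4%, 15.1%, 26.0% and 24.9% in KL-/- 1 to 4. The lowest WT library lay above the highest KL-/- library, and KL-/- 2 was again the extreme. The mean fell from 33.0% ± 1.77 in WT to 22.6% ± 5.04 in KL-/- muscle (SD, n = 4), a difference of −10.4 percentage points (two-sided exact permutation test, p = 0.0286). It was −7.88 without KL-/- 2, and in each of the 8 tests that left out 1 library the difference kept p = 0.0286 in the exact permutation test.

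The type IIa and type I shares showed no such separation. *Myh2* took 2.05%, 3.04%, 4.13% and 8.08% in WT 1 to 4, and 8.17%, 0.389%, 7.87% and 5.52% in KL-/- 1 to 4. Its mean was 4.32% ± 2.65 in WT and 5.49% ± 3.599 in KL-/- libraries (SD, n = 4; two-sided exact permutation test, p = 0.629). *Myh7* took between 0.0032% and 0.0167% in WT libraries, and 0.0639%, 0.0128%, 0.0055% and 0.0044% in KL-/- 1 to 4 (exact permutation test, p = 0.771). The difference of *Myh7* turned from 0.0116 to −0.0024 percentage points without KL-/- 1. The shares sum to 100%, so the 4 tests are linked, and their p-values and that of the ratio below are not adjusted for one another.

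**Figure D3:**
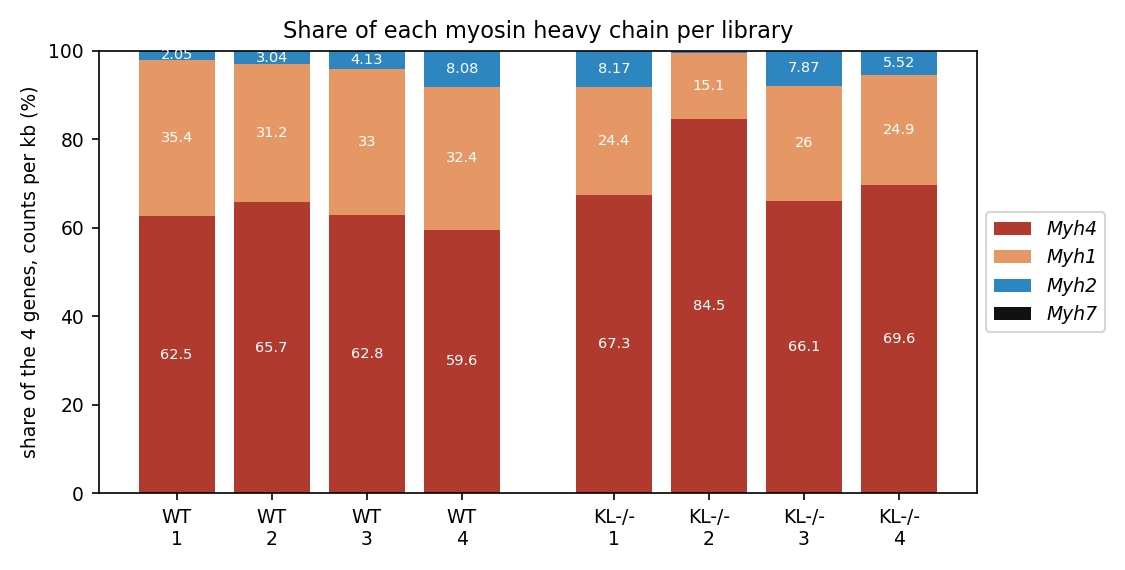
Share of *Myh4*, *Myh1*, *Myh2* and *Myh7* in their summed counts per kilobase, 1 bar per library, with shares over 1.5% printed in percent. The *Myh1* segment spans 31.2% to 35.4% in WT and 15.1% to 26.0% in KL-/- muscle, the *Myh2* segment of KL-/- 2 is 0.389%, and *Myh7* is too small to be seen.

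The ratio of type IIb to type IIx transcript gave the same separation in a single number per mouse. Per kilobase, *Myh4* exceeded *Myh1* by 1.77, 2.11, 1.90 and 1.84 times in WT 1 to 4, and by 2.76, 5.59, 2.54 and 2.79 times in KL-/- 1 to 4. The WT libraries lay close together, as did 3 of the KL-/- libraries, with KL-/- 2 above them. The mean log2 ratio was 0.93 ± 0.109 (SD, n = 4) in WT and 1.69 ± 0.529 (SD, n = 4) in KL-/- muscle, a difference of 0.77 (two-sided exact permutation test, p = 0.0286). It was 0.50 without KL-/- 2 and 0.88 without KL-/- 3, the library of the other batch date, each with p = 0.0286 in the exact permutation test. Without WT 1, WT 3 or WT 4 it was 0.73, 0.77 and 0.75, and the call was lost (exact permutation test, p = 0.0571).

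The ratio of type IIx to type IIa transcript, which was not tested, did not order the mice by genotype. *Myh1* exceeded *Myh2* per kilobase by 17.3, 10.3, 7.998 and 4.00 times in WT 1 to 4, and by 2.99, 38.8, 3.30 and 4.51 times in KL-/- 1 to 4. WT 4 thus lay among the KL-/- libraries and KL-/- 2 beyond the WT libraries.

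**Figure D4:**
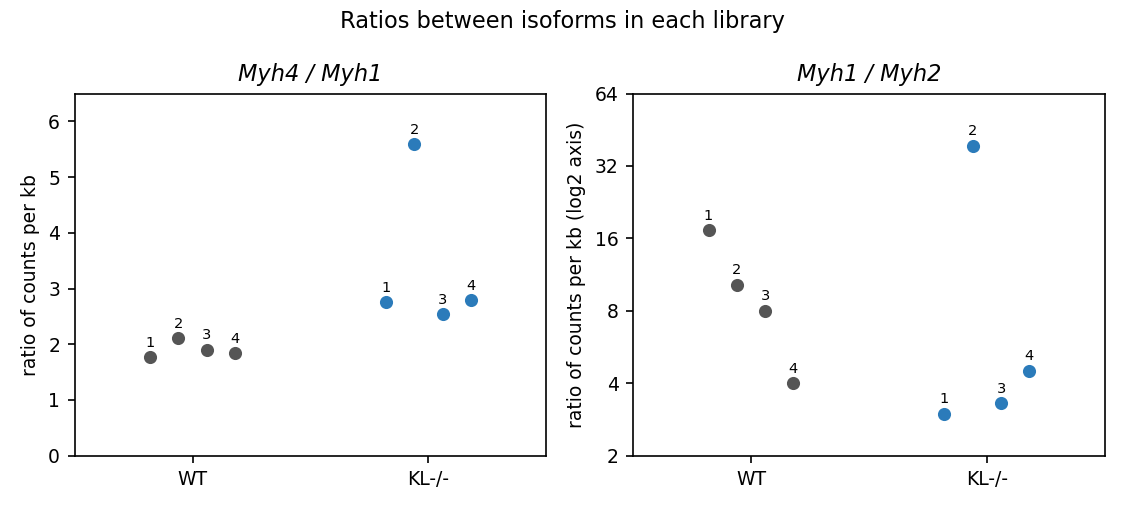
Ratio of *Myh4* to *Myh1* (left, linear axis) and of *Myh1* to *Myh2* (right, log2 axis) in counts per kilobase, with 1 point per library and its replicate number. The left ratio spans 1.77 to 2.11 in WT and 2.54 to 5.59 in KL-/- muscle, and the right ratio overlaps between genotypes.

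Together, the 4 genes took 5.80%, 5.62%, 6.30% and 5.73% of all counts on genes in WT 1 to 4, and 6.25%, 7.06%, 6.55% and 5.91% in KL-/- 1 to 4. The groups overlapped. Relative to TMM-scaled library sizes they did not, at 5.42% to 5.97% in WT and 6.19% to 7.43% in KL-/- libraries, with means of 5.63% and 6.71%. The scaling matters here because TMM factors were 1.02 to 1.05 in WT and 0.9501 to 0.980 in KL-/- libraries. When library totals were used unscaled, the median over all genes went from −0.016 to −0.13 on the log2 scale, *Myh4* from 0.46 to 0.34 and *Myh1* from −0.31 to −0.42.

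The other sarcomeric myosin heavy chains, developmental and specialised isoforms such as *Myh3* (embryonic), *Myh8* (neonatal) and *Myh13* (extraocular), are scarce beside the adult limb isoforms. Per kilobase they made up 0.0318% to 0.0463% of all sarcomeric myosin heavy chain transcript in WT and 0.0641% to 0.0865% in KL-/- muscle. All 5 of those counted had an FDR under 0.05 and were higher in KL-/- muscle, where 7.35% of all genes were. Their log2 fold changes ranged from 1.05 (*Myh13*) to 1.49 (*Myh3*), with *Myh8* at 1.16, *Myh6* at 1.20 and *Myh7b* at 1.26. Of these calls, that of *Myh3* held in 3 of the 8 fits that left out 1 library and the others in all 8. *Myh6*, *Myh7b* and *Myh13*, which also mark muscle spindle or extraocular fibres, summed to between 8.45 and 15.7 CPM in WT and between 26.1 and 32.5 CPM in KL-/- libraries. *Myh3* and *Myh8* flank the adult genes on chromosome 11, and *Myh13* follows *Myh8*. *Myh6*, which shares the most 100-base stretches with *Myh7*, was at 7.25 CPM in KL-/- 1, the lowest of the KL-/- libraries, while *Myh7* was highest there. Using all sarcomeric myosin heavy chains as the denominator left the difference at 9.17 percentage points for *Myh4* and at −10.4 for *Myh1*.

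Proteins of the fast sarcomere are made together with the type II myosins. Of 14 type II partner genes, 2 rose in KL-/- muscle, 0 fell and 12 did not pass, against 7.35% of all genes called higher and 6.67% called lower. The median log2 fold change was 0.26, against −0.016 over all genes. *Actn3*, the fast α-actinin that anchors actin at the Z-disc, was at 6682, 6926, 6558 and 5274 CPM in WT 1 to 4, and at 10289, 10097, 10324 and 9661 CPM in KL-/- 1 to 4. Unlike *Myh4*, it was nearly level among the KL-/- libraries, and its log2 fold change was 0.67 (SE 0.12, FDR = 0.0103 in the quasi-likelihood test). *Myom2*, a component of the M-band of fast fibres, had a log2 fold change of 0.43 (SE 0.10, FDR = 0.0212). DESeq2 called 8 of the 14 genes higher, where it called 10.5% of all genes higher. The count of 2 became 1 without WT 3 or without KL-/- 4, where 3.3% and 3.47% of all genes were called higher.

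Of 12 type I partner genes, 3 rose, 0 fell and 9 did not pass, against 7.35% and 6.67% of all genes. The median log2 fold change was 0.38, against −0.016 over all genes. The 3 were the slow troponin subunits, which make up the calcium switch of the slow thin filament and were at trace levels. *Tnnt1* was at 3.02, 5.09, 5.11 and 4.81 CPM in WT 1 to 4, and at 11.5, 9.59, 6.05 and 6.90 CPM in KL-/- 1 to 4 (log2 fold change 0.92, SE 0.23, FDR = 0.0319 in the quasi-likelihood test). *Tnnc1* (log2 fold change 1.18, FDR = 0.0399) and *Tnni1* (log2 fold change 1.05, FDR = 0.0401) were, like *Tnnt1* and *Myh7*, highest in KL-/- 1, at 7.88 and 5.86 CPM. These calls were fragile, and calls over all genes also changed with 1 library left out. The count of 3 became 0 without KL-/- 1, where 5.54% of all genes were called higher. It was also 0 without any 1 of the WT libraries (3.22% to 5.39% of all genes). The count was 1 without KL-/- 3 or 4 (3.25% and 3.47%) and 4 without KL-/- 2 (12.1%).

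Among slow partners that did not pass, several had the profile of *Myh2* rather than of *Myh7*. *Myoz2*, a Z-disc protein of slow fibres, was at 65.6, 81.0, 106 and 134 CPM in WT 1 to 4, and at 208, 40.7, 255 and 163 CPM in KL-/- 1 to 4. *Myom3*, an M-band protein of slower fibres, was at 17.6, 27.6, 34.6 and 77.6 CPM in WT 1 to 4, and at 70.4, 13.7, 84.6 and 49.5 CPM in KL-/- 1 to 4. As for *Myh2*, KL-/- 2 was the lowest library of all and KL-/- 3 the highest. These genes were chosen after their values were seen.

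**Figure D5:**
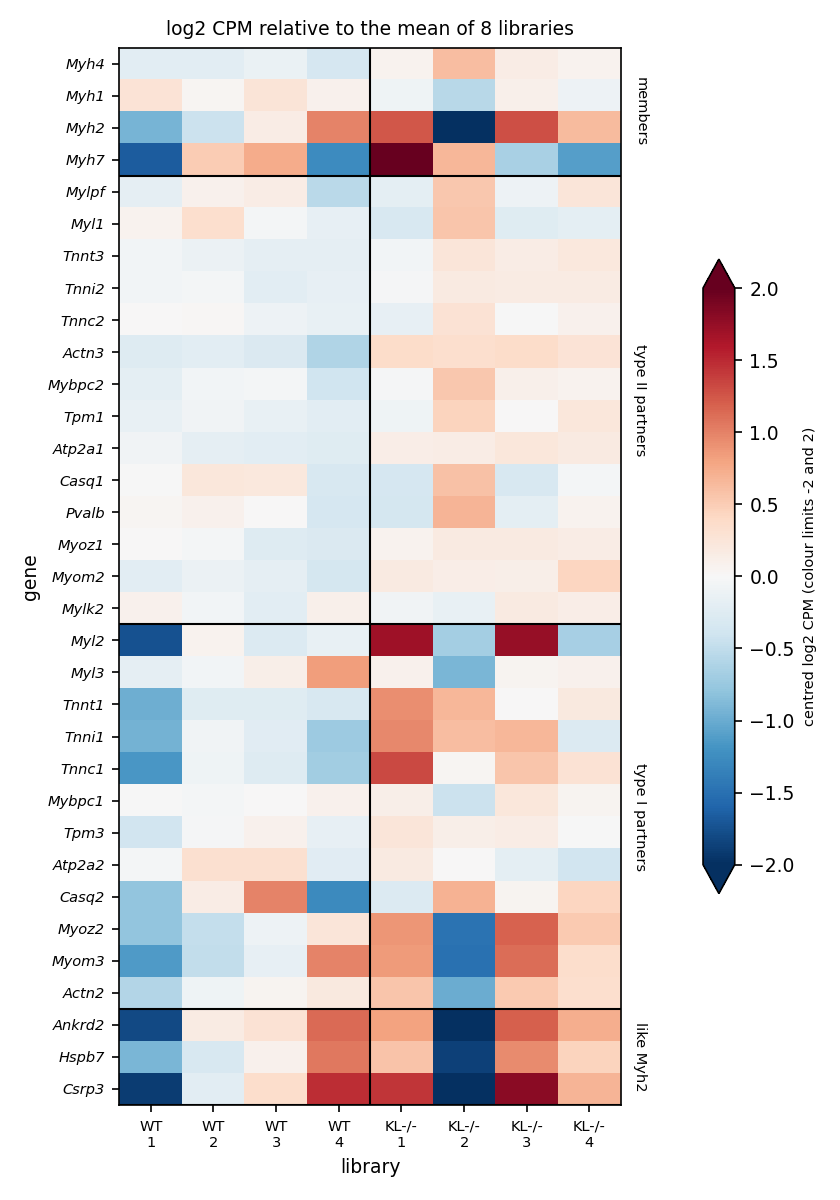
Log2 CPM of the 4 genes, their type II and type I sarcomere partners and the 3 genes most like *Myh2*, centred on the mean of the 8 libraries, with libraries in columns. KL-/- 2 is low for *Myh2* and for *Myoz2*, *Myom3* and *Csrp3*, and KL-/- 1 is high for *Myh7* and the slow troponins.

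Genes were ranked by how closely their profile over the 8 libraries followed each myosin, as the root mean square difference of centred log2 CPM among 6255 genes whose average log2 CPM reached 4. For *Myh4* the closest was *Mybpc2*, the fast myosin-binding protein C of the thick filament, at 0.08, where *Myh4* itself had an SD of 0.30. *Mybpc2* was at 4113, 4508, 4586 and 3548 CPM in WT 1 to 4, and at 4637, 6829, 5034 and 4916 CPM in KL-/- 1 to 4, with KL-/- 2 on top as for *Myh4*. *Cacna2d1*, a calcium channel subunit, and *Egf*, a growth factor, followed at 0.11 each.

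For *Myh1* the closest genes were *Sphk2*, a sphingosine kinase (0.08), *Jup*, the junction protein plakoglobin (0.10), and *Twf2*, an actin-binding protein (0.11). *Sphk2* was at 21.8, 17.3, 21.9 and 18.6 CPM in WT 1 to 4, and at 16.5, 10.5, 17.3 and 16.8 CPM in KL-/- 1 to 4. Its order of libraries was close to that of *Myh1*, with KL-/- 2 lowest.

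For *Myh2* the closest were *Ankrd2* (0.43), *Hspb7* (0.47) and *Csrp3* (0.50), against an SD of 1.43 for *Myh2*. *Ankrd2* encodes an ankyrin repeat protein of the sarcomere that responds to stretch, *Hspb7* a small heat shock protein of striated muscle and *Csrp3* the muscle LIM protein. *Csrp3* was at 20.3, 65.7, 97.0 and 212 CPM in WT 1 to 4, and at 205, 6.25, 267 and 122 CPM in KL-/- 1 to 4. All 3 shared with *Myh2* the lowest value in KL-/- 2 and the next lowest in WT 1.

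For *Myh7* the closest was *Cish*, an inhibitor of cytokine signalling, at 0.32, and the next, *Eln* (elastin) and *Zfp503*, were already at 0.97 and 1.00, against an SD of 1.46 for *Myh7*. The average log2 CPM of *Myh7* itself was 3.34, under the cutoff of 4 for the ranked genes. The slow troponin genes were also under it, so they were not ranked against *Myh7*. *Cish* was at 5.59, 28.2, 20.02 and 6.10 CPM in WT 1 to 4, and at 81.8, 18.1, 10.1 and 4.64 CPM in KL-/- 1 to 4. Its highest library was KL-/- 1, as for *Myh7*.

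Isoform choice is set by transcription factors and by calcium signalling from the nerve. Of 39 genes with such a role, 5 rose, 3 fell and 31 did not pass in the quasi-likelihood test, against 7.35% of all genes called higher and 6.67% called lower, and the median log2 fold change was −0.055. With unscaled library totals, 1 was called higher and 7 lower, where that fit called 3.92% of all genes higher and 16.9% lower. *Eya4*, a transcriptional cofactor, was at 36.7, 36.3, 35.9 and 37.1 CPM in WT 1 to 4, and at 49.7, 51.3, 42.5 and 42.1 CPM in KL-/- 1 to 4. Its log2 fold change of 0.35 (SE 0.077, FDR = 0.0204 in the quasi-likelihood test) did not pass with library totals (0.23, FDR = 0.0664).

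Calcineurin and the NFAT factors it activates carry the calcium signal that favours slower isoforms. *Ppp3ca*, a catalytic subunit of calcineurin, was at 278, 246, 240 and 266 CPM in WT 1 to 4, and at 342, 325, 344 and 356 CPM in KL-/- 1 to 4 (log2 fold change 0.41, SE 0.064, FDR = 0.00623 in the quasi-likelihood test). *Nfatc2* was at 15.7, 16.0, 17.8 and 17.5 CPM in WT 1 to 4, and at 10.6, 12.9, 11.9 and 10.03 CPM in KL-/- 1 to 4 (log2 fold change −0.56, SE 0.10, FDR = 0.00847). *Ppp3ca* and *Nfatc2* kept their calls in all 8 fits that left out 1 library and under both other scalings. *Nfatc1*, *Nfatc3* and *Nfatc4* did not pass.

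*Hdac5*, a class II histone deacetylase that restrains MEF2 factors, had a log2 fold change of 0.32 (FDR = 0.0243 in the quasi-likelihood test), and *Tead1*, a factor that binds muscle gene promoters, of −0.33 (FDR = 0.0351). *Hdac5* did not pass with library totals (0.20, FDR = 0.0866). Another 2 called genes fell outside the rule for naming genes and are named after their values were seen. *Mafa*, a large MAF factor, was at 49.97, 38.7, 44.8 and 29.2 CPM in WT 1 to 4, and at 52.4, 70.6, 51.3 and 83.1 CPM in KL-/- 1 to 4 (log2 fold change 0.66, SE 0.19, FDR = 0.0494). *Tbx15*, a T-box factor of glycolytic fibres, had a log2 fold change of 0.28 (FDR = 0.0397), and neither passed with library totals, at an FDR of 0.0665 for *Mafa* and 0.135 for *Tbx15*. The noncoding gene 2310065F04Rik, which lies on the reverse strand between *Myh3* and *Myh2*, was at 109 to 136 CPM in WT and 84.1 to 126 CPM in KL-/- libraries (log2 fold change −0.27, FDR = 0.148).

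The count of 8 regulators depended on single libraries, as did the calls over all genes. It was 3 without WT 2 or WT 3, where 6.21% and 6.17% of all genes were called, against 14.0% in the full fit. The count was 4 without WT 4 or KL-/- 4 (10.9% and 6.2% of all genes). It was 5 without KL-/- 3 (6.07%) and 11 without KL-/- 2 (22%).

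Newly made myosin is folded by chaperones and built into thick filaments with M-band and titin scaffolds. Of 15 genes of this kind, 2 rose, 1 fell and 12 did not pass, against 7.35% and 6.67% of all genes, with a median log2 fold change of 0.14. With library totals 1 was called higher and 4 lower, where 3.92% and 16.9% of all genes were. *Myom1*, the myomesin that cross-links thick filaments in the M-band, was at 1798, 1610, 1564 and 1695 CPM in WT 1 to 4, and at 2525, 1953, 2613 and 2640 CPM in KL-/- 1 to 4 (log2 fold change 0.55, SE 0.11, FDR = 0.0140 in the quasi-likelihood test). *Cct2*, a subunit of the chaperonin that folds actin and tubulin, had a log2 fold change of 0.23 (FDR = 0.0295), which was 0.11 with library totals (FDR = 0.147). *Hsp90aa1*, a cytosolic chaperone, had one of −0.39 (FDR = 0.0321). The 3 calls became 1 without WT 3, WT 4, KL-/- 3 or KL-/- 4, where 6.07% to 10.9% of all genes were called. The count was 7 without KL-/- 2, where 22% of all genes were called, against 14.0% in the full fit.

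None of 17 metabolic enzymes that mark glycolytic or oxidative fibres passed in the quasi-likelihood test, where 14.0% of all genes did, and DESeq2 called 3 of them, where it called 19.6% of all genes. The median log2 fold change was 0.074. The 2 with the lowest p were *Ckmt2*, the mitochondrial creatine kinase (log2 fold change −0.43, FDR = 0.0602), and *Gapdh*, an enzyme of glycolysis (log2 fold change 0.27, FDR = 0.107).

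Some markers of other cells in the muscle differed between genotypes. Of all genes, 7.35% were called higher and 6.67% lower in KL-/- muscle, and 10.2% lay higher and 9.47% lower without overlap. The marker lists are short, so 1 call in a list is not read as a change. Summed fibroblast markers overlapped, from 461 to 1350 CPM in WT and from 234 to 650 CPM in KL-/- libraries, with 2 of 4 genes called lower. Schwann cell markers ran from 29.3 to 54.5 CPM in WT and from 60.4 to 78.7 CPM in KL-/- libraries, with 2 of 3 genes higher. Markers of fibres themselves summed to between 61720 and 70180 CPM in WT and between 74720 and 85960 CPM in KL-/- libraries, with 1 of 5 genes higher. Also, 1 gene was called lower among the endothelial (of 3), macrophage (of 4) and tendon markers (of 3) and 1 higher among those of smooth muscle (of 3). No call was made for the leukocyte marker, for adipocyte markers, which ran from 1.02 to 5.74 CPM in WT and 1.16 to 20.9 CPM in KL-/- libraries with KL-/- 1 highest, or for the red blood cell marker. No marker counted was at 0 in any library, *Plin1* and 3 haemoglobin genes were not analysed here, and the part of any of these cells in the isoform shares was not tested.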

How the data were processed

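RNA from TA muscles of 4 WT and 4 KL-/- mice was sequenced from 100 ng per library. Per the labels and the methods, the deposited table was made by the authors with FastQC, STAR (genome build mm10) and featureCounts, with a filter on mapping quality before counting. The deposited values are these raw counts, for 12551 genes with no further filter applied here. The annotation version, read length and use of strand are not given in the sources used here. The methods describe mRNA libraries and the labels total RNA. Groups and replicate numbers come from the sample titles. The labels name separate muscles but no litters, so p-values set genotype differences against the spread between these samples, with litter not taken into account.

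The fit over all genes used edgeR 4.0.16 in R 4.3.3 (TMM factors, genotype as the only term, glmQLFit and glmQLFTest, Benjamini-Hochberg adjustment over all genes, threshold 0.05). Standard errors were taken from the test statistic. Log2 CPM profiles used a prior count of 2. Shares used counts per kilobase of counted length, with two-sided exact permutation tests over 70 relabelings. Between libraries of a genotype, the chi-square per gene was 9.907 or more, so none were duplicates. A floor of 3 counts lies under every *Myh7* count. Promoters came from RefSeq and transcripts from GENCODE, aligned with mafft 7.526. Tests were checked on simulated data.

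Alternatives were DESeq2 1.42.0, limma-voom (limma 3.58.1), edgeR's likelihood ratio test and its edgeR 3 quasi-likelihood test, RLE factors, library totals, filters on low counts, the replicate number as a block, raw counts or all sarcomeric myosins in the shares, and each library left out. The rule for named genes took the 4 genes, list members with an FDR under 0.05 (up to 6 per list, or the 2 with the lowest p where none passed), 3 most similar profiles per gene and neighbours in the clusters. Genes and lists were chosen with earlier results of these data known. In the regulator list, 1 gene is counted but not reported here on its own.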

Additional observations from a re-analysis of the deposited data

Results flagged for a closer look

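In 22 sets of 4 libraries of one genotype, the gap between the most extreme library and its nearest neighbour, relative to the range, was compared with Dixon's 95% critical value, and 5 were past it. Chance alone flags about 1 set in 20, and several of these 5 share the same counts. KL-/- 2 was at 62798 CPM for *Myh4*, against 42976 to 45341 CPM in the other KL-/- libraries. Its *Myh1* share was 15.1%, against 24.4% to 26.0%. Its ratio of *Myh4* to *Myh1* was 5.59, against 2.54 to 2.79, which is 2.48 on the log2 scale, against 1.35 to 1.48. KL-/- 1 had a *Myh7* share of 0.0639%, against 0.0044% to 0.0128% in the other KL-/- libraries.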

How the results depend on the processing

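*Myh4* kept its direction in all alternatives and passed the threshold in 3, the likelihood ratio test (log2 fold change 0.46, FDR = 0.0169), DESeq2 (0.47, FDR = 0.00317) and limma-voom (0.44, FDR = 0.0442). *Myh1* and *Myh2* kept their direction and did not pass in any alternative. *Myh2* was 0.094 in limma-voom and 0.18 with the replicate block, against 0.57. Leaving out 1 library gave log2 fold changes of 0.32 to 0.52 for *Myh4*, −0.40 to −0.18 for *Myh1*, 0.30 to 1.03 for *Myh2* and −0.099 to 1.78 for *Myh7*, which reversed without KL-/- 1, as did its share difference (−0.0024 to 0.0174 percentage points). The differences ranged from 5.005 to 11.1 for the *Myh4* share, which lost p under 0.05 in 5 of the 8 exact permutation tests (p up to 0.114). They ranged from −11.5 to −7.88 for the *Myh1* share, which kept it in all 8. For the log2 ratio of *Myh4* to *Myh1* they ranged from 0.50 to 0.88, and that ratio lost it in 3 (exact permutation test, p = 0.0571). With 3 against 4 fewer relabelings exist, but the exact permutation test can still reach p = 0.0286, as it did for the *Myh1* share. The summed members differed by 0.579 percentage points of all counts, by 0.374 to 0.757 with 1 library left out, and by 1.09 with TMM-scaled library sizes.

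The replicate numbers did not pair the samples (correlations of deviations between same-numbered samples −0.27, 0.28, −0.46 and −0.0067). With the replicate block, the *Myh4* share (9.20), the *Myh1* share (−10.4) and the log2 ratio (0.77) had p = 0.125 in the exact sign-flip permutation test, the smallest that sign flips of 4 pairs allow, so the loss of the call comes from the design of that test. The block gave 671 calls over all genes, against 1759, 1 among type II partners, 0 among type I partners, 3 regulators and 1 folding gene. In the same order, leaving out 1 library gave 1 to 2, 0 to 4, 3 to 11 and 1 to 7 calls, and 0 to 2 for metabolic enzymes and 4 to 5 for other myosins. DESeq2 called 8 type II partners, 5 folding genes and 3 metabolic enzymes, and library totals gave 5 folding genes (1 higher, 4 lower) and 1 metabolic enzyme. Over all genes, library totals called 492 higher and 2127 lower, against 922 and 837, and leaving out 1 library gave 762 to 2755 calls. The causes of these changes were not tested.

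With 4 mice per genotype, the intervals of *Myh2* and *Myh7* were too wide to show differences of the size seen for *Myh4*.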

Other observations

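The libraries at the ends of each list's range were not spread evenly. KL-/- 2 was the highest of the 8 libraries in 9 of 14 type II partners and the lowest in 5 of 12 type I partners, where of all 12551 genes it was highest in 1500 and lowest in 1486. KL-/- 1 was the highest in 5 of 12 type I partners and the lowest in 4 of 14 type II partners, against 11.8% and 12.5% over all genes. WT 4 was the lowest in 8 of 14 type II partners and WT 1 the lowest in 5 of 12 type I partners, against 11.6% and 7.11% of all genes. The oxygen-binding protein myoglobin (*Mb*), named after its values were seen, was at 4404 to 6408 CPM in WT and at 4558, 2391, 5445 and 4560 CPM in KL-/- 1 to 4, so KL-/- 2 was lowest there as well.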
